A study of Mus musculus with 12 samples.

Results

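The miR-30 family was followed here in extracellular vesicles from mouse plasma, membrane particles shed into blood by many cell types. Its members were taken by name, as the listed arms of miR-30a to miR-30e: 5 guide (5p) strands and 5 passenger (3p) strands, 10 of the 1915 mouse names in the count table (mmu-miR-30a-5p, mmu-miR-30a-3p, mmu-miR-30b-5p and so on, with the mmu prefix dropped from here). All 10 names were in the table and 8 of them passed the filter on low counts. The 12 libraries came from male C57BL/6J mice, 6 libraries after bile duct ligation (BDL) and 6 after a sham operation, both taken 8 days after surgery. In BDL the main bile duct is tied, bile backs up and the liver is injured, while a sham operation leaves the duct open. The design text gives 6 animals per group, but no label ties a library to an animal, so p-values measure the spread between libraries. Vesicles were precipitated from EDTA plasma with a polymer reagent, a method that can bring down other carriers of RNA as well. The labels disagree on the source: liver is given as tissue, whereas the site field and the protocol give plasma vesicles.

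A microRNA hairpin is cut into a 5p and a 3p strand, and 1 of them, the guide, is usually kept to repress messenger RNAs that match its seed, bases 2 to 8. The miR-30 guides share a seed and are found in many tissues, among them liver, kidney, lung and heart. Studied targets include connective tissue growth factor and the transcription factor Snail1, both linked to fibrosis. The passenger strands carry other seeds and are usually scarce.

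The sequences below show how close the names are to each other, which bears on how reads can be told apart. They are mature RNAs from RefSeq on GRCm38.p6, which held 7 of the 10 members. miR-30b-5p, miR-30d-5p and miR-30d-3p are named only. Capitals mark the seed.
miR-30a-5p: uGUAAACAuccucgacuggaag
miR-30e-5p: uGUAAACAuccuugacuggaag
miR-30c-5p: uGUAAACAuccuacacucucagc
miR-30a-3p: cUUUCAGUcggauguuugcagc
miR-30e-3p: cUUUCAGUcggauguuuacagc
miR-30c-1-3p: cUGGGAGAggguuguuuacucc
miR-30c-2-3p: cUGGGAGAaggcuguuuacucu

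The 3 printed guides share the seed GUAAACA and their first 12 bases. miR-30a-5p and miR-30e-5p differ at 1 base, C13U, counted from 1 at the 5′ end. miR-30a-3p and miR-30e-3p also differ at 1 base, G18A, and share the seed UUUCAGU, while both miR-30c passengers carry UGGGAGA and differ at 3 bases. The rule by which reads were counted and the mismatches it allowed are not stated in the labels. A share of miR-30e reads counted as miR-30a, or the reverse, is therefore uncertain for these pairs. Of 1679 mature names in the RefSeq table, 4 hold GUAAACA at bases 2 to 8, which is 0.238%. They are the 3 guides above and miR-384-5p (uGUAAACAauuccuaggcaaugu), a name outside the family that had 1 count in 1 sham library. miR-30b-5p and miR-30d-5p have no sequence there, so they are not part of this count.

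The annotated hairpins lie in pairs. Mir30a (chr1:23272269-23272339, plus strand) is followed after 19361 bases by Mir30c-2 (chr1:23291701-23291784, plus strand). Mir30c-2 overlaps an exon of the lincRNA Gm27028 in GENCODE M21, and Mir30a overlaps no other gene there. On chromosome 4, Mir30c-1 (chr4:120769534-120769622) and Mir30e (chr4:120772606-120772697) are 2983 bases apart. Both lie on the minus strand inside introns of Nfyc, which encodes a subunit of the transcription factor NF-Y. miR-30c-5p can be cut from Mir30c-1 or Mir30c-2 with the same sequence, so its counts cannot be assigned to either.

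The libraries differed in depth. BDL libraries 2, 4 and 6, whose sample codes end in 26, held 121003 to 666310 counts. BDL libraries 1, 3 and 5, whose codes end in 24, held 1635616 to 3506914. Sham totals ran from 659302 to 2684636. The meaning of these suffixes is not given, and results are shown with both suffixes together and apart. The codes also begin with a digit shared by 2 libraries, 1 to 3 in BDL and 4 to 6 in sham, whose meaning is not given either. If it marks an animal or a pool, there are 3 independent units per group and the p-values over 12 libraries are too small. Levels are CPM, counts per 1e6 of the library size after TMM, a trimmed-mean scaling between libraries. In the shallowest library, BDL 4, 1 count was worth 7.99 CPM and the limit that a count of 0 allows was 23.98 CPM. In the deepest, BDL 1, these were 0.208 and 0.624 CPM. Such limits cover counting error only, since reads after PCR are not independent molecules.

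The guide strand miR-30d-5p dominated the family in both groups, and after BDL it rose while miR-30e-5p and the passenger miR-30a-3p fell. Of the 8 names tested, 1 was higher, 2 were lower and 5 did not pass the threshold (adjusted p under 0.05 in edgeR's quasi-likelihood test, corrected by Benjamini-Hochberg over all 341 names tested). Of all names tested, 42.8% passed it, 24.6% higher and 18.2% lower in BDL. The share of miR-30 names past the threshold was thus near the background, and nothing is read from it about the family. The median log2 fold change (BDL minus sham) was -0.33 over the 8 names and 0.03 over all 341.

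**Figure D1:**
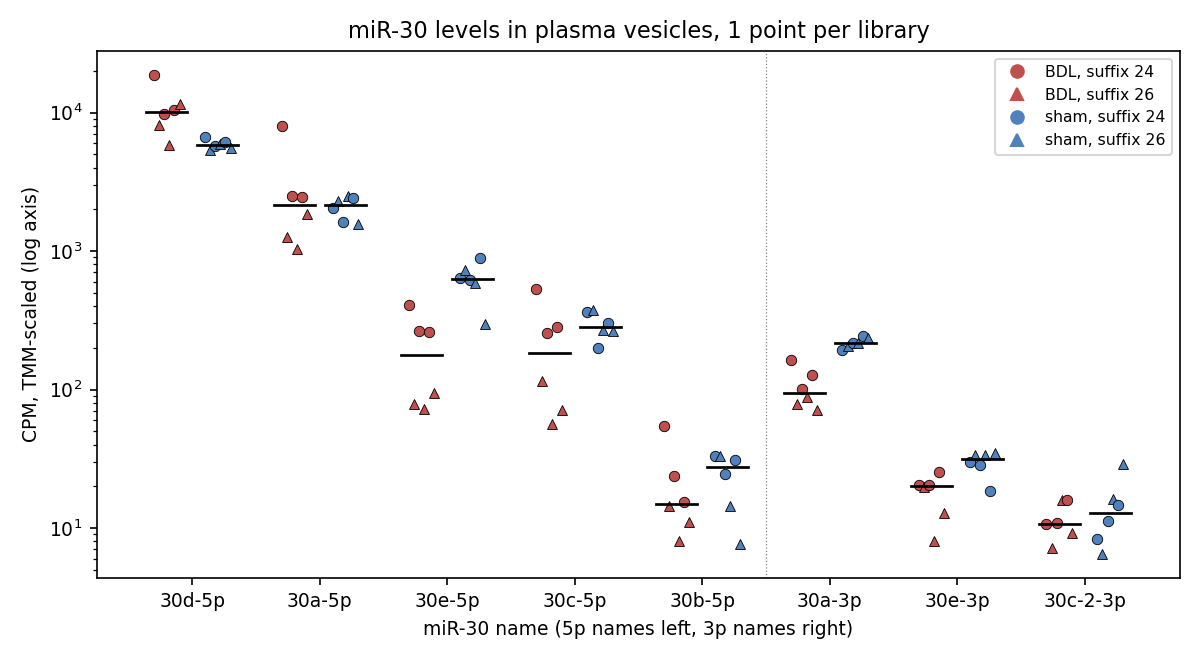
Levels of the 8 tested miR-30 names in CPM (log axis), 1 point per library, BDL in red left of sham in blue, circles for code suffix 24 and triangles for suffix 26, with a line at each group's median. For miR-30d-5p the BDL points lie mostly above those of sham, for miR-30e-5p mostly below, and for miR-30a-3p wholly below.

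miR-30d-5p, the most abundant guide, ranked 9 of 1915 names by mean CPM in BDL and 12 in sham. In BDL its lowest, median and highest levels were 5842, 10088 and 18751 CPM, and in sham 5324, 5855 and 6604.2 CPM. BDL 1 was the highest library, and 5 of 6 BDL libraries lay above every sham library, with BDL 4 the exception. The mean was 10736 ± 4404 CPM in BDL and 5876 ± 451 CPM in sham (± SD over 6 libraries per group). The log2 fold change was 0.87 ± 0.26 (SE; adjusted p = 0.0118), a 1.83-fold rise. It was 1.10 ± 0.31 within suffix 24 (adjusted p = 0.0184) and 0.57 ± 0.35 within suffix 26 (adjusted p = 0.209). Without BDL 1 it was 0.56 (adjusted p = 0.0446). Without sham 3 it was 0.70 and did not pass the threshold (adjusted p = 0.0695).

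miR-30a-5p, the second guide in abundance and one known to repress the autophagy gene Becn1, was set apart by BDL 1. Levels in BDL had a minimum of 1039, a median of 2152 and a maximum of 7990 CPM, and those in sham 1576, 2167 and 2490 CPM. The medians were close, 2 BDL libraries lay below every sham library, and BDL 1 and BDL 3 lay above. The mean was 2851 ± 2589 CPM in BDL and 2068 ± 397 CPM in sham (± SD over 6 libraries per group). The log2 fold change was 0.47 ± 0.40 (adjusted p = 0.387). Its sign turned with the libraries used: it was -0.25 without BDL 1 (adjusted p = 0.464), 1.12 ± 0.42 within suffix 24 (adjusted p = 0.0599) and -0.65 ± 0.36 within suffix 26 (adjusted p = 0.169).

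Among the 8 names tested, miR-30e-5p differed most between groups. Levels in BDL were 71.9 at the lowest, 178 at the median and 407 CPM at the highest, against 299, 625 and 896 CPM in sham. All but 1 BDL library, BDL 1, lay below every sham library. The mean was 197 ± 137 CPM in BDL and 629 ± 197 CPM in sham (± SD over 6 libraries per group). miR-30e-5p fell by 1.64 on the log2 scale (SE 0.42; adjusted p = 0.00466), to a level 3.12-fold lower in BDL than in sham. The log2 fold change was -1.17 ± 0.28 within suffix 24 (adjusted p = 0.00938) and -2.76 ± 0.46 within suffix 26 (adjusted p = 4.62e-04). It stayed past the threshold without the 3 shallow BDL libraries, at -0.996 ± 0.31 (adjusted p = 0.019).

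miR-30c-5p, known for lowering microsomal triglyceride transfer protein in mouse liver, split by code suffix. In BDL its levels were 55.9, 71.6 and 115 CPM in the 3 libraries with suffix 26 and 254, 282 and 535 CPM in the 3 with suffix 24. In sham they were 264, 268 and 376 CPM in suffix 26 and 200.02, 302 and 364 CPM in suffix 24. The BDL libraries with suffix 26 thus lay below every other library, and those with suffix 24 overlapped sham. Over all 12 libraries the log2 fold change was -0.40 ± 0.44 (adjusted p = 0.492). Within suffix 26 miR-30c-5p fell by 1.93 (SE 0.42; adjusted p = 0.00286), while within suffix 24 the log2 fold change was 0.33 ± 0.34 (adjusted p = 0.50). The difference of the BDL effect between suffixes was -2.16 ± 0.55 (suffix 26 minus suffix 24; adjusted p = 0.0378). That term passed the threshold for 8 of 341 names, or 2.35%. For miR-30e-5p it was -1.51 ± 0.51 and for miR-30a-5p -1.72 ± 0.58 (adjusted p = 0.0868 for each), and for miR-30d-5p it was -0.47 ± 0.46 (adjusted p = 0.595). The 3 BDL libraries with suffix 26 were also the shallow ones, with 64, 7 and 39 counts of miR-30c-5p in BDL 2, 4 and 6. Suffix and depth cannot be told apart in BDL.

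miR-30b-5p was the scarcest guide. It had 1 to 262 counts per library in BDL and 5 to 96 in sham, or 7.99 to 54.5 CPM (median 14.8) in BDL and 7.62 to 33.3 CPM (median 27.6) in sham. The groups overlapped and the log2 fold change was -0.06 ± 0.45 (adjusted p = 0.938). The 1 count in BDL 4 was under the limit that a count of 0 allows in that library.

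**Figure D2:**
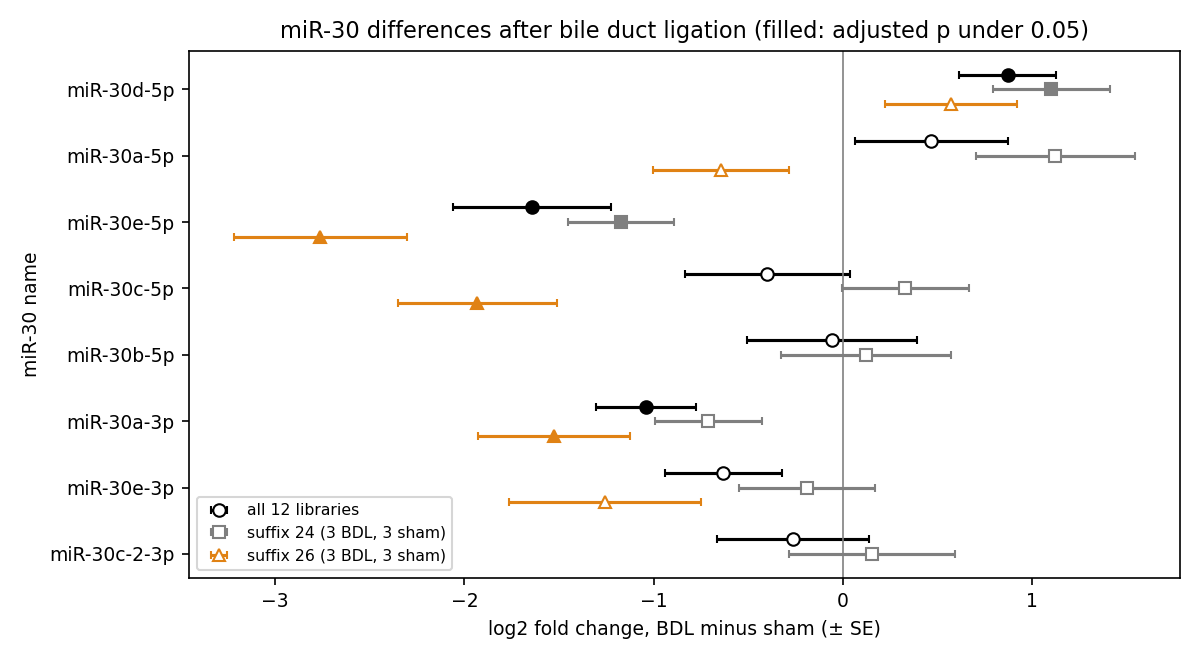
Log2 fold change (BDL minus sham) with its standard error for the 8 tested miR-30 names, over all 12 libraries (black circles), in the 6 with suffix 24 (grey squares) and in the 6 with suffix 26 (orange triangles), filled where the adjusted p was under 0.05. miR-30e-5p is below 0 in all 3 fits, while miR-30c-5p is at -1.93 in suffix 26 and 0.33 in suffix 24. miR-30b-5p and miR-30c-2-3p did not pass the count filter within suffix 26.

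Among the passenger strands, miR-30a-3p was the most abundant and the 1 tested family member whose groups did not overlap, as did 21.1% of all names tested. Its levels in BDL were 71.6, 94.3 and 163 CPM at the lowest, median and highest, against 193, 216 and 245 CPM in sham. The mean was 105 ± 34.6 CPM in BDL and 219 ± 19 CPM in sham (± SD over 6 libraries per group). miR-30a-3p fell by 1.04 on the log2 scale (SE 0.26; adjusted p = 0.00473). Within suffix 24 the value was -0.71 ± 0.28 (adjusted p = 0.0716) and within suffix 26 it was -1.53 ± 0.40 (adjusted p = 0.00815).

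miR-30e-3p had 7.99 to 25.5 CPM in BDL (median 20.1) and 18.6 to 35.0 CPM in sham (median 31.7). Every BDL library was below the sham median, but the groups overlapped through sham 5. The log2 fold change of -0.63 ± 0.31 did not pass the threshold (adjusted p = 0.112; 0.045 with DESeq2). miR-30c-2-3p had 7.19 to 15.98 CPM in BDL and 6.51 to 29.0 CPM in sham, a log2 difference of -0.27 ± 0.40 (adjusted p = 0.903, and 0.492 with DESeq2). In BDL 4, miR-30e-3p had 1 count (7.99 CPM) and miR-30c-2-3p had 2 (15.98 CPM). Both were under the limit that a count of 0 allows in that library.

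The other 2 passengers were under the filter. Tested with no count filter, their log2 fold changes were 0.24 ± 0.94 for miR-30d-3p (adjusted p = 0.918) and -0.93 ± 0.96 for miR-30c-1-3p (adjusted p = 0.567). miR-30d-3p had 16 counts in all in BDL, with 0 in 2 libraries, and 16 in sham, with 0 in 1 library. miR-30c-1-3p had 9 counts in BDL and 17 in sham, with 0 in 3 libraries of each group. No difference was detectable for either at this depth.

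Ratios of counts within a library do not depend on the scaling between libraries, and they were used to ask whether members changed by unequal amounts. The 10 pairs of guides and 3 pairs of arms were each tested by exact permutation of the group labels, two-sided, with a smallest possible p of 0.00216 and p-values adjusted over all 13 ratios. Of the 10 guide pairs, 8 differed between BDL and sham with an adjusted p under 0.05, and 6 to 8 did with any 1 library left out. The 10 pairs are built from 5 guides and are not separate results. Every pair with miR-30e-5p was among the 8. How often ratios between other names differ was not tested, and 42.8% of single names passed their threshold. The pairs that did not differ were miR-30a-5p over miR-30b-5p and miR-30b-5p over miR-30c-5p (exact p = 0.331 and 0.152). With counts summed per code digit, 3 sums against 3, the smallest exact p is 0.1. The groups then did not overlap for 8 of the 10 guide pairs, but not the same 8 as above. These included miR-30a-5p over miR-30b-5p, while miR-30a-5p over miR-30d-5p overlapped (difference -0.33, exact permutation p = 0.4). How often other name pairs separate in this way was not tested.

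The guides pulled farthest apart were miR-30d-5p and miR-30e-5p. Their log2 ratio was 5.20 at the lowest, 5.90 at the median and 6.93 at the highest in BDL, against 2.76, 3.28 and 4.21 in sham. No BDL library overlapped sham. The mean was 5.98 ± 0.74 in BDL and 3.29 ± 0.51 in sham (± SD over 6 libraries per group; exact permutation p = 0.00216, adjusted p = 0.00703). As geometric means, miR-30d-5p had 63.2 times the counts of miR-30e-5p in BDL and 9.80 times in sham, a 6.45-fold change of the ratio. The difference was 2.22 within suffix 24 and 3.16 within suffix 26.

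miR-30e-5p also lost ground to the guide that differs from it at 1 base. The log2 ratio of miR-30a-5p over miR-30e-5p averaged 3.80 ± 0.48 in BDL and 1.77 ± 0.39 in sham (± SD over 6 libraries per group; exact permutation p = 0.00216, adjusted p = 0.00703), and every BDL library lay above every sham library. The difference of 2.03 was nearly the same in both suffixes, 2.09 in suffix 24 and 1.98 in suffix 26. It ranged from 1.94 to 2.16 with any 1 library left out.

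miR-30e-5p was also lower relative to the scarcer guides. The log2 ratio of miR-30b-5p over miR-30e-5p averaged -3.08 ± 0.61 in BDL and -4.78 ± 0.41 in sham, and that of miR-30c-5p over miR-30e-5p 0.04 ± 0.38 in BDL and -1.05 ± 0.53 in sham (± SD over 6 libraries per group; exact permutation p = 0.00216 and 0.00649, adjusted p = 0.00703 and 0.0121). For miR-30b-5p over miR-30e-5p the difference was 1.10 in suffix 24 and 2.30 in suffix 26. There miR-30b-5p had only 8, 1 and 6 counts in BDL 2, 4 and 6. miR-30c-5p over miR-30d-5p averaged -5.94 ± 0.90 in BDL and -4.34 ± 0.34 in sham, and no BDL library reached the lowest sham value (± SD over 6 libraries per group; exact permutation p = 0.00216, adjusted p = 0.00703). Its difference was -0.75 in suffix 24 and -2.46 in suffix 26. miR-30a-5p over miR-30c-5p averaged 3.76 ± 0.58 in BDL and 2.81 ± 0.29 in sham (± SD over 6 libraries per group; exact permutation p = 0.00433, adjusted p = 0.00938). Its adjusted p was 0.0523 after thinning to the shallowest library and 0.0663 without the 3 shallow BDL libraries.

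Less firm were the ratios of miR-30a-5p and of miR-30b-5p to miR-30d-5p. Their differences, BDL minus sham, were -0.65 and -0.99 (exact permutation p = 0.0281 and 0.0303, n = 6 each; adjusted p = 0.0394 for both). For miR-30a-5p over miR-30d-5p the value was -0.13 in suffix 24 and -1.18 in suffix 26, and the call ended without any 1 of 8 of the 12 libraries, BDL 2 to BDL 6, sham 2, sham 4 and sham 5 (permutation p adjusted over 13 ratios from 0.05002 to 0.0816), and after thinning (adjusted p = 0.0633). For miR-30b-5p over miR-30d-5p it ended without any 1 of 9, BDL 2 to BDL 6, sham 1 to sham 3 and sham 5 (adjusted p from 0.0506 to 0.0816), with 2 in place of 0.5 added to each count (adjusted p = 0.0703) and after thinning to the shallowest library (adjusted p = 0.075). Without the 3 shallow BDL libraries the adjusted p was 0.374 for miR-30a-5p over miR-30d-5p and 0.223 for miR-30b-5p over miR-30d-5p.

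**Figure D3:**
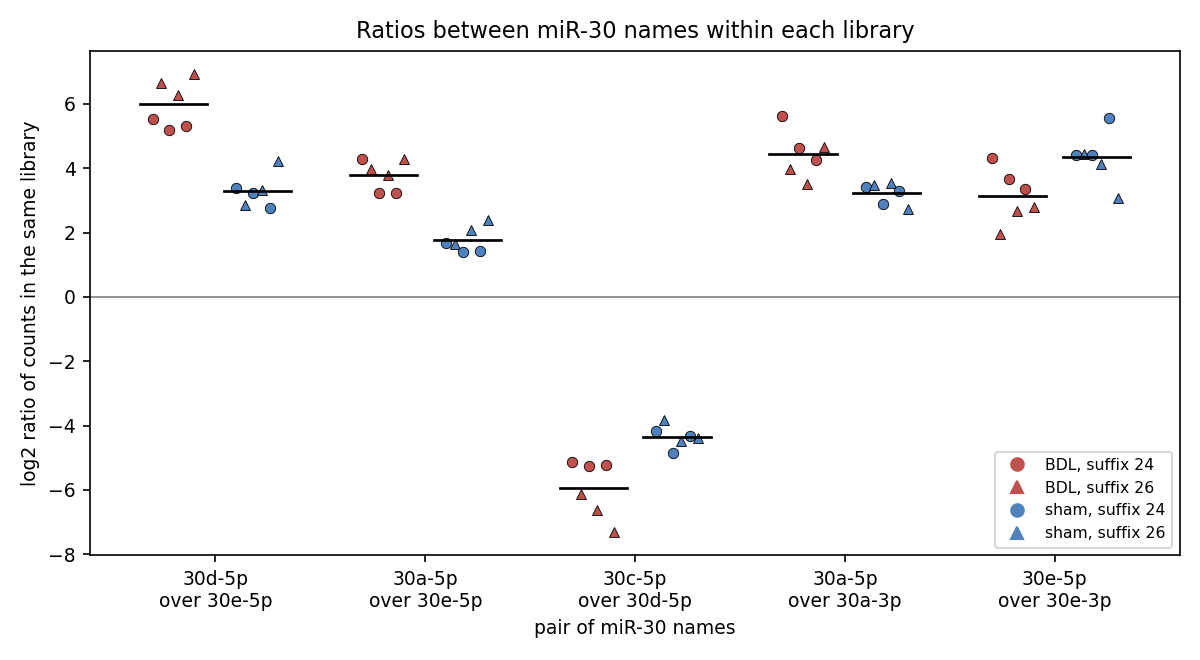
Log2 ratios of counts between pairs of miR-30 names in the same library, 1 point per library, BDL in red left of sham in blue, circles for suffix 24 and triangles for suffix 26, with a line at each group's mean. The first 3 pairs do not overlap between groups. The 5p over 3p ratio is higher in BDL for miR-30a, at a mean of 4.44 against 3.22 in sham, and lower for miR-30e, at 3.12 against 4.33.

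These ratios made up a changed mixture of guides. miR-30d-5p took 79.0 ± 6.75% of the 5 guides' counts in BDL and 66.3 ± 4.504% in sham (± SD over 6 libraries per group). miR-30e-5p took 1.34 ± 0.58% in BDL and 6.99 ± 1.86% in sham, with 0.689 to 2.07% and 3.89 to 9.23%, ranges that did not overlap. miR-30a-5p took 18.0 ± 5.88% in BDL and 23.1 ± 3.10% in sham. miR-30c-5p took 1.42 ± 0.67% in BDL and 3.32 ± 0.66% in sham. Its ranges, 0.527 to 2.09% and 2.44 to 4.29%, did not overlap either. miR-30b-5p took 0.140 ± 0.045% in BDL and 0.265 ± 0.112% in sham. The ranges of miR-30d-5p, miR-30a-5p and miR-30b-5p overlapped.

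**Figure D4:**
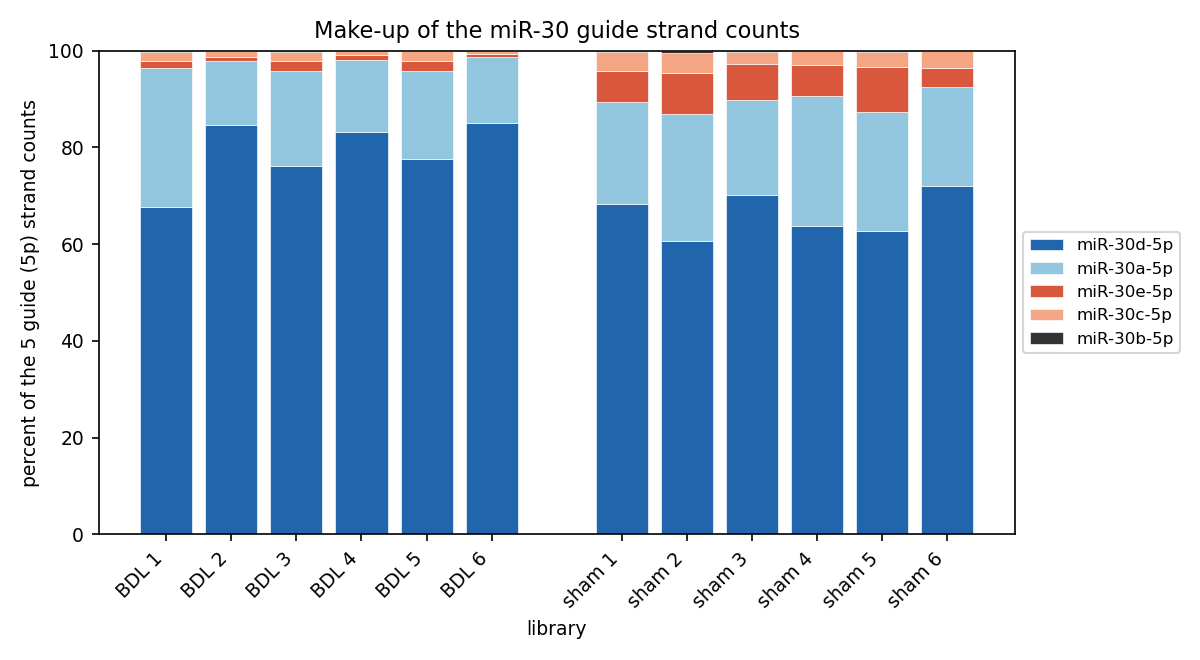
Share of each guide strand in the summed counts of the 5 guides, in percent, 1 bar per library, BDL libraries left of sham libraries. miR-30d-5p takes 67.6 to 85.1% in BDL and 60.8 to 72.1% in sham, and the miR-30e-5p layer takes 0.689 to 2.07% in BDL and 3.89 to 9.23% in sham.

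The order of the guides changed at 1 place. In BDL it ran miR-30d-5p, miR-30a-5p, miR-30c-5p, miR-30e-5p and miR-30b-5p by mean CPM. miR-30c-5p and miR-30e-5p were not told apart there: miR-30c-5p was higher in 3 of 6 BDL libraries, with a geometric mean ratio of 1.03 (two-sided exact sign-flip permutation p = 0.75). In sham miR-30e-5p came before miR-30c-5p in 6 of 6 libraries, by 2.07-fold (exact sign-flip permutation p = 0.0312, the smallest possible with 6 libraries). Each of the other neighbours kept its order in 6 of 6 libraries of its group, with the same p. miR-30d-5p exceeded miR-30a-5p 4.53-fold in BDL and 2.88-fold in sham. Counts of different names also carry differences in ligation and amplification, so these folds describe reads and need not equal molecule numbers.

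The arms of miR-30a changed by unequal amounts, while the difference for miR-30e depended on single libraries and that for miR-30d could not be read. The hairpins of miR-30a and miR-30e are shown with both mature arms in capitals, 5p first.
Mir30a: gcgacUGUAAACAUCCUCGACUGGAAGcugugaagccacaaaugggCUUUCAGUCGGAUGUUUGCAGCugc
Mir30e: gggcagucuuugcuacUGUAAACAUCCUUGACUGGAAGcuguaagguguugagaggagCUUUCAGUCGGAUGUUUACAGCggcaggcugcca
For miR-30a the log2 ratio of 5p over 3p was 3.50, 4.45 and 5.61 at the lowest, median and highest in BDL, against 2.73, 3.35 and 3.52 in sham. BDL 4, the shallowest library, fell within the sham range and the other 5 BDL libraries lay above it. The mean was 4.44 ± 0.72 in BDL and 3.22 ± 0.32 in sham (± SD over 6 libraries per group; exact permutation p = 0.00433, adjusted p = 0.00938). The difference of 1.23 was 1.64 in suffix 24 and 0.81 in suffix 26.

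For miR-30e the difference had the opposite sign. Its 5p over 3p log2 ratio was 1.95, 3.06 and 4.31 in BDL, against 3.06, 4.41 and 5.57 in sham, and the groups overlapped. The mean was 3.12 ± 0.83 in BDL and 4.33 ± 0.80 in sham (± SD over 6 libraries per group; exact permutation p = 0.0281, adjusted p = 0.0394). The 3p strand had 1 to 11 counts in the shallow BDL libraries. The call ended without any 1 of 9 of the 12 libraries, BDL 2, BDL 4 to BDL 6 and sham 1 to sham 5 (permutation p adjusted over 13 ratios from 0.0563 to 0.0816). It also ended without all 3 shallow BDL libraries (adjusted p = 0.366) and when all libraries were thinned to the depth of the shallowest (adjusted p = 0.387). With group labels permuted only within each code suffix, the miR-30e call held (exact permutation p = 0.005, adjusted p = 0.0108). So did the miR-30a call (exact permutation p = 0.01, adjusted p = 0.0186). For miR-30d the 3p counts were too few to read a ratio (difference 0.46, exact permutation p = 0.721, n = 6 each). miR-30a-3p and miR-30e-3p differ at 1 base, so a misassigned read would move both arm ratios.

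As a whole the family took 0.740, 1.21 and 3.83% of all mouse counts at the lowest, median and highest in BDL, against 0.709, 0.904 and 1.07% in sham. BDL 1 stood apart with 3.83%, and the other 5 BDL libraries held 0.740 to 1.52%. Guides made up 98.1 to 99.3% of family counts in BDL and 96.1 to 97.6% in sham, ranges that did not overlap.

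The family's changes stood beside shifts in markers of other sources, largest for the hepatocyte names. All shares are parts of the same total, so a rise in any list lowers the shares of the others. The 3 hepatocyte names (miR-122-5p, miR-122-3p and miR-192-5p) took 7.14 to 33.9% of BDL counts and 0.413 to 2.49% of sham counts. Of these, 2 were tested and both were higher. miR-122-3p was under the filter, with a mean of 0.718 ± 0.90 CPM in BDL (± SD over 6 libraries) and 0 in every sham library. The 5 red cell names took 33.7 to 71.8% in BDL and 73.1 to 80.98% in sham, with 1 of 4 tested lower and 0 higher. Among them miR-486a-5p and miR-486b-5p had equal counts in all 12 libraries, and with 1 of these names left out the share was 20.4 to 56.1% in BDL and 57.9 to 68.2% in sham. Of 5 leukocyte names 3 were lower, of 2 endothelial and platelet names both, of 4 tested striated muscle names 3 and of 3 tested epithelial names 1, with 0 higher in any of these lists. For comparison, 18.2% of all 341 names tested were lower and 24.6% higher. Leukocyte names summed to 0.0502 to 0.303% in BDL and 0.279 to 0.661% in sham, endothelial and platelet names to 0.0619 to 0.359% and 0.292 to 0.884%. Striated muscle names summed to 0.0661 to 0.167% in BDL and 0.114 to 0.225% in sham, epithelial names to 0.00413 to 0.0295% and 0.0131 to 0.0245%. The share ranges of the leukocyte, endothelial and platelet, striated muscle and epithelial lists overlapped between groups. The part of these sources in the miR-30 values was not tested, and fewer vesicles from a cell type and less of a microRNA per vesicle cannot be told apart.

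Other broadly found guide families gave these counts. Of 9 let-7 guides, 0 were higher and 3 lower, with a median log2 fold change of -0.70, and of 2 miR-26 guides both were lower, with a median of -1.88. Among all 341 names tested, 24.6% were higher and 18.2% lower, so little can be read from such short lists. Whether miR-30 differs from these families was not tested.

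The names outside the family whose levels most resembled the 2 abundant guides from library to library were found from log2 CPM after removing each group's mean, over 12 libraries. For miR-30d-5p they were miR-139-5p (Pearson r = 0.94), miR-24-2-5p (r = 0.87) and miR-199a-3p (r = 0.86). For miR-30a-5p they were miR-27b-3p (r = 0.94), miR-532-5p (r = 0.92) and miR-221-3p (r = 0.89). Between miR-30 guides r ran from 0.66 (miR-30b-5p and miR-30d-5p) to 0.90 (miR-30a-5p and miR-30d-5p). All of these values share the same 12 libraries, with their depth and suffix, and describe likeness only. Group differences of these names were mixed. Beside 0.87 for miR-30d-5p, the log2 fold changes were 0.28 ± 0.25 for miR-139-5p (adjusted p = 0.408), 0.91 ± 0.29 for miR-24-2-5p (adjusted p = 0.0194) and -1.23 ± 0.30 for miR-199a-3p (adjusted p = 0.00343). Beside 0.47 for miR-30a-5p, they were -0.73 ± 0.26 for miR-27b-3p (adjusted p = 0.0341), 0.22 ± 0.36 for miR-532-5p (adjusted p = 0.663) and -0.76 ± 0.32 for miR-221-3p (adjusted p = 0.0679). Reads of miR-199a-3p cannot be told from those of miR-199b-3p.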

How the data were processed

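Small RNA libraries were made from RNA of plasma vesicles, per the labels' protocols. The deposited values are whole-number counts per mature microRNA name, with no normalisation visible in them. The tools were cutadapt and STAR, per the submitters' processing notes. Tool versions, build, annotation and counting rule: not given in the sources used here. Of 1982 names, 67 of other species (at most 0.00786% of counts) were left out of totals and tests. Libraries of a group differed beyond counting noise and none were identical.

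The test across names was the quasi-likelihood F test of edgeR 4.0.16 (R 4.3.3, TMM, its filter by group, Benjamini-Hochberg over 341 names). SE is the log2 fold change over the square root of F. Ratios used counts plus 0.5 and exact permutation tests. Log2 CPM used a prior count of 2. DESeq2 1.42.0, limma-voom (limma 3.58.1) and other settings were alternatives. Members were named by a given list, resembling names by the 3 highest correlations outside the family for each of the 2 most abundant guides. Members and lists were chosen with earlier results of these data known.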

Additional observations from a re-analysis of the deposited data

Results flagged for a closer look

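Of 45 groups of 6 values screened for a library far from the others, 2 held one, where chance gives about 1 in 20. The family's share of counts was 3.83% in BDL 1, far above the other 5 BDL libraries. miR-30e-3p had a log2 CPM of 4.31 in sham 5, below the other 5 sham libraries, and that library also had the highest miR-30e-5p level of its group. The effect of BDL on miR-30c-5p differed between the code suffixes by -2.16 (suffix 26 minus suffix 24, log2; edgeR interaction term).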

How the results depend on the processing

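The names past the threshold numbered 146 over 12 libraries. With all libraries thinned to 121003 counts they numbered 63 of 132 tested, and 61 of these were among the 146. Leaving out 1 library at a time gave 120 to 156. The miR-30 names past it numbered 3, and 2 to 3 with 1 library left out. Without a count filter they numbered 1: miR-30d-5p (0.84, adjusted p = 0.143) and miR-30a-3p (-1.07, adjusted p = 0.0739) were lost. In edgeR on counts summed per code digit, the same 3 miR-30 names passed, beside 176 of all 438 names tested. Their log2 fold changes were 1.09 for miR-30d-5p (adjusted p = 0.00608), -1.25 for miR-30e-5p (adjusted p = 0.00216) and -0.83 for miR-30a-3p (adjusted p = 0.015). DESeq2's size factors put the median of all names at -0.11, against 0.03 with TMM. The arm ratios with an unadjusted exact p under 0.05 numbered 2, but 1 after thinning, 1 without the 3 shallow BDL libraries (a setting chosen after seeing the data), and 1 to 2 with 1 library left out. With p adjusted over 13 ratios, 8 guide pairs passed, but 5 after thinning, 5 without the shallow libraries and 7 with 2 added to each count. Summed per code digit, which was added after seeing the data, 0 guide and 0 arm ratios passed, since the smallest p is 0.1, and miR-30b-5p over miR-30c-5p turned to -0.061. The family's mean share was 5.46% in BDL and 3.82% in sham once miR-122-5p and the miR-486 5p names were left out of the total, against 1.56% in BDL and 0.899% in sham with them. The ranges overlapped with these names and without them, and BDL 1 was the highest both ways. Without them they were 3.39 to 8.88% in BDL and 3.14 to 4.29% in sham.

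Signs turned for names that did not pass the threshold over 12 libraries. miR-30b-5p (-0.06) was 0.14 with total counts only, 0.12 in suffix 24, 0.16 with counts summed per code digit, 0.35 without the 3 shallow BDL libraries, and -0.68 to 0.091 with 1 library left out. miR-30c-5p (-0.40) was 0.33 in suffix 24, 0.11 summed per code digit and 0.28 without the shallow libraries. miR-30c-2-3p was 0.15 in suffix 24. miR-30a-5p was -0.65 in suffix 26 and -0.25 to 0.59 with 1 library left out, and passed the threshold without the shallow libraries (1.06, adjusted p = 0.0138). The miR-30d 5p over 3p difference ran from -0.059 to 1.40 with 1 library left out. The cause of these changes was not tested.

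Same-numbered BDL and sham libraries did not deviate together, with correlations of -0.09 to 0.31, and 2 of 6 BDL libraries correlated best with their own number. With a replicate block 133 names and 3 miR-30 names passed. Under the replicate block the smallest possible exact p is 0.0312. The unadjusted exact sign-flip p passed for 6 guide pairs and 1 arm ratio: miR-30a 5p over 3p (p = 0.0625), miR-30c-5p over miR-30e-5p (p = 0.0625) and miR-30a-5p over miR-30d-5p (p = 0.0938) were lost, while miR-30e 5p over 3p was kept. With p adjusted over 13 ratios, 0 passed (lowest 0.058).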

Other observations

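Related names outside the listed members gave few counts. miR-30b-3p had 67 counts in BDL and 366 in sham, of which 297 were in sham 1. Its log2 fold change was -1.32 ± 0.95 (edgeR, adjusted p = 0.286), and it depended on single libraries. It was 0.034 without sham 1 (adjusted p = 0.989), but -2.26 without BDL 4 (adjusted p = 0.0394), -2.61 without the 3 shallow BDL libraries (adjusted p = 0.029), -3.05 in suffix 24 (adjusted p = 0.0383), -2.13 summed per code digit (adjusted p = 0.0362) and -1.55 without a count filter (adjusted p = 0.0379). miR-30f, annotated on the strand opposite to Mir30e, had 2 counts in BDL and 6 in sham.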
